A study of Saccharomyces cerevisiae with 16 samples.

Results

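The 10 genes described here encode the cytosolic translation elongation factors of budding yeast. They were chosen by name, as the rows of the deposited gene count table for TEF1, TEF2, EFB1, TEF4, CAM1, EFT1, EFT2, YEF3, HYP2 and ANB1, out of 5696 host gene rows, and all 10 passed the filter on low counts that left 5268 genes for testing. The assay, HT-5PSeq, sequenced RNA that carries a 5′ phosphate, most of it mRNA in the course of decay, after reverse transcription from oligo(dT). A level given here is therefore a level of such molecules and not of total mRNA.

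All libraries came from strain BY4741, a laboratory haploid of mating type a, grown in medium lacking uracil for 4 h at 30 °C until the OD600 was 0.7. In 7 groups an mCherry reporter driven by the RPS3 promoter was present on a plasmid kept at low copy number. Its RPS3 terminator had 3 sites for inserts of 9 bp in modHTH, modHNH, modNGG, modNAA, modNTN and modNNN, and none in WT. The letters name the insert at each site, where H is TTTCATTTC, T is TGTACAATA, A holds ATATTC, N is a random sequence, and G is not defined in the labels. The eighth group, POT1-ccdB, carried a control plasmid with no reporter, and whether the plasmids are otherwise alike is not stated in the labels. Each group had 2 libraries.

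Of the 16 libraries, 13 held 1070844 to 2939907 reads and were used. Left out were modNGG replicate 2 (477 reads), modHNH replicate 2 (267) and modHTH replicate 2 (69), so these 3 groups rest on 1 library each, and tests on them borrow the spread of the other groups. The labels do not tell whether replicate libraries stem from separate cultures, so each p-value below reflects library spread alone, part or all of which may be technical. The strain's deleted genes URA3 (the chromosomal copy) and MET17 had 0 reads in all 13 libraries, and LEU2 had at most 2. HIS3, whose allele in this strain is a partial deletion, had 198 to 582 reads; their position within the gene was not examined. The a-type genes STE2 and MFA2 had at least 728 and 1505 reads a library, while STE3 of the other mating type had at most 20. In the reporter contrast described below, 0 of 6 tested mating type markers passed and 3 had an unadjusted p under 0.05 (18.2% of all genes), with a median log2 fold change of −0.33. The 1 tested marker of the strain, HIS3, had −0.05 and did not pass.

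During elongation, eEF1A with GTP brings each aminoacyl-tRNA to the ribosome, and eEF1B reloads it with GTP. eEF2 then moves the ribosome along by one codon, eEF3, an ATPase that fungi need and animals lack, helps clear the E site, and eIF5A keeps ribosomes moving through stretches such as consecutive prolines. In yeast several factors come from gene pairs. TEF1 and TEF2 both encode eEF1A, EFT1 and EFT2 both encode eEF2, TEF4 and CAM1 encode 2 forms of the gamma subunit of eEF1B, and HYP2 and ANB1 encode eIF5A, HYP2 in air and ANB1 when oxygen is short. EFB1 encodes the exchange subunit eEF1B alpha and YEF3 encodes eEF3.

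Together the 10 genes took 2.17 to 2.47% of host reads in the 11 reporter libraries (median 2.29%) and 2.26% and 2.34% in the 2 POT1-ccdB libraries. The mean share was 2.31 ± 0.10% with the reporter (SD, n = 11) and 2.30 ± 0.06% without it (SD, n = 2), and the ranges overlapped.

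Levels per length, in CPM (reads scaled to a common library size, with TMM factors, over host genes) per kb of deposited transcript, differed by orders of magnitude between the members. TEF2 led with a mean of 3281 CPM per kb over the 13 libraries, place 16 of the 4818 genes with a transcript length, and TEF1 followed with 2449 CPM per kb, place 28. HYP2 had 1958 CPM per kb, EFB1 1473, TEF4 1269 and YEF3 1252. On this length YEF3 and TEF4 lay next to each other, with means closer than the spread of YEF3 (SD 257, n = 13). The deposited lengths are genomic spans that include the introns of EFB1 and TEF4. This lowers the values of both per kb, so their places among the members are uncertain. EFT2 had 492 CPM per kb, CAM1 411 and EFT1 221. ANB1 stood far below all of these, at 21.2 CPM per kb and place 3573. With the RefSeq gene span as the length, HYP2 came first at 4849 CPM per kb against 4015 for TEF2. The deposited HYP2 transcript of 1174 nt extends 481 nt before the gene of 474 nt, so the order at the top rests on the choice of length. Whether reads of 5′ phosphate ends grow with transcript length was not tested, and CPM alone gave another order. Among 5696 genes by CPM, TEF2 had place 7, YEF3 14, TEF1 17, TEF4 44 and HYP2 48. EFB1 had place 69, EFT2 115, CAM1 261, EFT1 282 and ANB1 4796. Per kb, YEF3 had place 86.

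**Figure D1:**
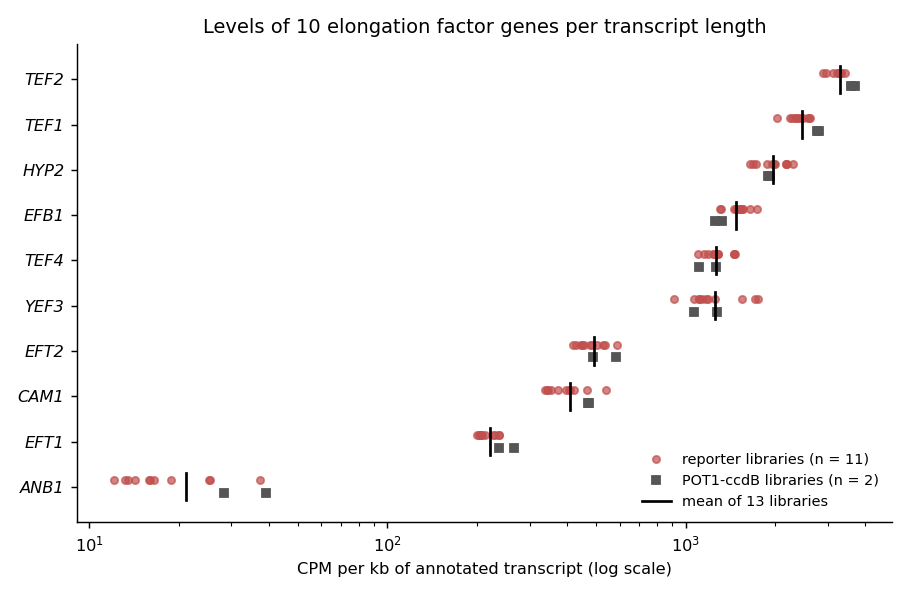
Level of each elongation factor gene in CPM per kb of transcript (log axis), with 1 point for each of the 13 usable libraries and a bar at the mean. TEF2 (mean 3281) is at the top and ANB1 (mean 21.2) is the only gene below 100 CPM per kb.

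Most members varied little between libraries. The SD of log2 CPM over the 13 libraries was 0.096 for TEF2, 0.125 for EFT1, 0.130 for TEF1, 0.138 for TEF4, 0.139 for EFB1, 0.150 for HYP2, 0.158 for EFT2 and 0.212 for CAM1. The median gene tested had 0.246, and the median over the 376 genes tested with at least 500 CPM had 0.204. YEF3, at 0.279, and ANB1, at 0.556, varied more than both medians.

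The group with the highest mean differed from gene to gene. It was modHTH for YEF3 (5915 CPM), EFT2 (1655 CPM) and HYP2 (2693 CPM), modHNH for TEF4 (2752 CPM) and CAM1 (888 CPM), WT for EFB1 (2214 CPM), and POT1-ccdB for TEF1 (4541 CPM), TEF2 (6145 CPM), EFT1 (714 CPM) and ANB1 (23.8 CPM). The lowest mean lay in modHNH for TEF1 (3317 CPM), TEF2 (4877 CPM) and ANB1 (8.57 CPM) and in modNGG for EFT1 (577 CPM). It lay in modNNN for TEF4 (2208 CPM), EFT2 (1228 CPM) and YEF3 (3539 CPM), in WT for CAM1 (586 CPM) and HYP2 (1998 CPM), and in POT1-ccdB for EFB1 (1749 CPM). No member passed the adjusted threshold in the test of any difference among the 8 groups, given below, so neighbours in these orders are not told apart. The means of modHTH, modHNH and modNGG are single libraries.

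The first question was whether cells with the reporter differed from cells without it. The contrast weighted the 7 reporter groups equally and set them against POT1-ccdB, with edgeR's quasi-likelihood test and Benjamini-Hochberg adjustment over all 5268 genes. None of the 10 members passed an adjusted p of 0.05 (0 of 10), where 0.380% of all genes tested did, all 20 of them lower with the reporter. At an unadjusted p under 0.05 there were 2 of 10, TEF1 and ANB1, against 18.2% of all genes, a share near this background, and DESeq2 called 0 of the 9 members it gave an adjusted p (ANB1 had none), against 1.89% of the 3021 genes it gave one. The members' median log2 fold change was −0.15, with 4 above 0 and 6 below, beside a median of 0.02 over all genes. With the 4 gene pairs summed to 1 row each the median of the remaining 6 rows was 0.05, with 4 above 0 and 2 below.

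**Figure D2:**
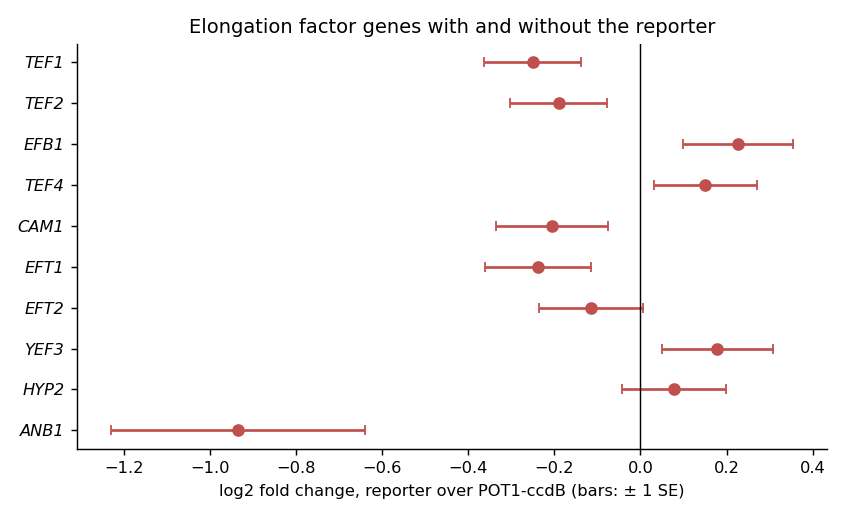
Log2 fold change of each elongation factor gene in the 11 reporter libraries over the 2 POT1-ccdB libraries, from edgeR, with bars of 1 SE on each side. ANB1 (−0.94) is farthest from 0, the other 9 lie between −0.25 and 0.23, and none passed the adjusted threshold.

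The eEF1A genes lie on chromosome XVI, where the transcript of TEF1 (YPR080W) spans 700459 to 702091, and on chromosome II, where that of TEF2 (YBR118W) spans 477464 to 479148, both on the plus strand of sacCer3 (R64). TEF1 had 3317 to 4276 CPM in the reporter libraries (median 3884), against 4573 and 4509 CPM in POT1-ccdB. TEF2 had 4877 to 5750 CPM in the reporter libraries (median 5534), against 6246 and 6043 CPM in POT1-ccdB. For both genes every reporter library was below both control libraries.

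EFT1 had the same ordering, so 3 of 10 members had all 11 reporter libraries lower than both controls, where 3.45% of all genes did. No member had all of them higher (background 2.60%). On host read totals in place of TMM scaling, TEF1 and TEF2 kept the ordering and EFT1 lost it (1.94% of all genes), and EFB1 was higher in every reporter library (4.69% of all genes). The fold changes were small. For TEF1 the log2 value was −0.25 (SE 0.11; 95% interval −0.49 to −0.01; edgeR adjusted p = 0.25) and for TEF2 it was −0.19 (SE 0.11; −0.43 to 0.05; edgeR adjusted p = 0.38).

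Within the eEF1A pair, TEF2 took 56.8 to 60.1% of the reads in every library (median 57.9%). The log2 ratio of TEF1 to TEF2 had an SD of 0.069, the smallest of the 4 pairs. The log2 ratio averaged −0.48 ± 0.07 in reporter libraries (SD, n = 11) and −0.44 ± 0.02 in POT1-ccdB (SD, n = 2), and no difference was detected in a two-sided exact permutation test (difference −0.04, p = 0.54, adjusted p = 0.62). The 2 genes encode the same protein and are nearly identical over their coding sequence. The sources used here do not say how reads matching both were assigned, so the split between TEF1 and TEF2, like that between EFT1 and EFT2, is uncertain.

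The genes of eEF1B are EFB1 (YAL003W; chromosome I, plus strand, transcript 142141 to 143496), TEF4 (YKL081W; chromosome XI, plus strand, 282812 to 284695) and CAM1 (YPL048W; chromosome XVI, plus strand, 464281 to 465928). EFB1 and TEF4 each contain an intron that hosts a small nucleolar RNA, whose reads cannot be told apart from the host's in this table. EFB1 had 1766 to 2345 CPM in the reporter libraries (median 2064), against 1798 and 1699 CPM in POT1-ccdB. The groups overlapped through modNTN replicate 2, at 1766 CPM, and modNNN replicate 2, at 1781 CPM, which lay between the controls. Its log2 fold change, 0.23 (SE 0.13; 95% interval −0.04 to 0.50; edgeR adjusted p = 0.35), was the highest of the 10.

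The gamma subunit genes had fold changes of opposite sign, neither past the test. TEF4 had 2068 to 2752 CPM with the reporter (median 2393), against 2378 and 2084 CPM without it. CAM1 had 557 to 888 CPM with the reporter (median 656), against 779 and 773 CPM without it. Both sets of ranges overlapped (TEF4 log2 0.15, SE 0.12, edgeR adjusted p = 0.51; CAM1 log2 −0.21, SE 0.13, edgeR adjusted p = 0.41).

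TEF4 supplied 72.9 to 80.9% of the reads of the pair. The log2 ratio of TEF4 to CAM1 averaged 1.88 ± 0.15 in reporter libraries (SD, n = 11) and 1.52 ± 0.13 in POT1-ccdB (SD, n = 2). The difference of 0.36 had p = 0.026 in a two-sided exact permutation test over the 78 splits, whose smallest possible p is 0.013, and p = 0.21 after adjustment over the 8 ratio tests. The groups overlapped through modNNN replicate 2, whose log2 ratio of 1.60 was just under the 1.61 of the higher control library.

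**Figure D3:**
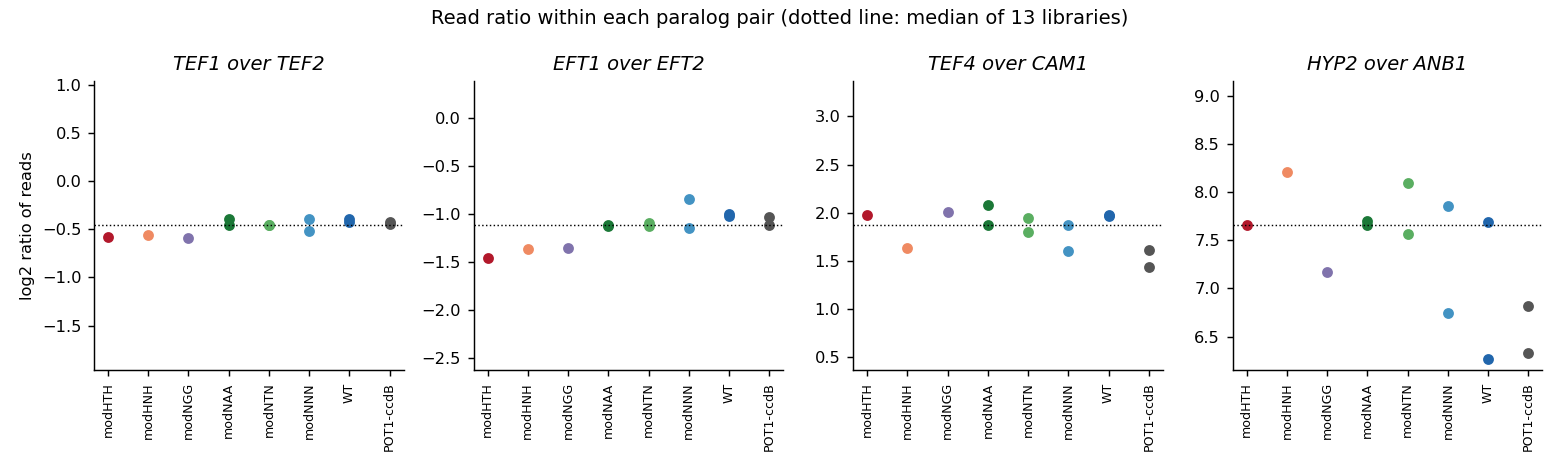
Log2 ratio of reads of the first to the second gene of each pair, for each usable library by group, with 1 panel a pair and the same height of axis in each. The TEF1/TEF2 ratio stays within 0.20 log2 units (−0.59 to −0.39) while HYP2/ANB1 runs from 6.26 to 8.21.

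The eEF2 genes are EFT1 (YOR133W; chromosome XV, plus strand, transcript 575023 to 577863) and EFT2 (YDR385W; chromosome IV, plus strand, 1243142 to 1245949). EFT1 had 566 to 672 CPM with the reporter (median 588), against 755 and 673 CPM without it. EFT2 had 1177 to 1655 CPM with the reporter (median 1345), against 1638 and 1373 CPM without it. The EFT1 ranges were separated by less than 1 CPM and those of EFT2 overlapped. EFT1 had a log2 fold change of −0.24 (SE 0.12; 95% interval −0.50 to 0.02; edgeR adjusted p = 0.31) and EFT2 one of −0.11 (SE 0.12; −0.37 to 0.14; edgeR adjusted p = 0.64).

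EFT2 supplied 64.2 to 73.2% of the pair's reads (median 68.5%). Its share was highest in the only usable libraries of modHTH (73.2%), modHNH (72.0%) and modNGG (71.9%), above the 64.2 to 68.9% of the other 10. The log2 ratio of EFT1 to EFT2 was −1.15 ± 0.18 with the reporter (SD, n = 11) and −1.07 ± 0.06 without it (SD, n = 2), with p = 0.62 and adjusted p = 0.62 in the two-sided exact permutation test. Between the 9 libraries with modified terminators (−1.18 ± 0.18, SD) and the 2 WT libraries (−1.01 ± 0.01, SD) the exact permutation p was 0.24 and the adjusted p 0.38.

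YEF3 (YLR249W; chromosome XII, plus strand, transcript 636714 to 640084) has the longest transcript of the 10, at 3371 nt. It had 3074 to 5915 CPM with the reporter (median 3937), against 4291 and 3591 CPM in POT1-ccdB. The control libraries lay inside the reporter range, and the log2 fold change was 0.18 (SE 0.13; 95% interval −0.09 to 0.45; edgeR adjusted p = 0.47). With only the 5 groups that have 2 usable libraries it was −0.08 (edgeR adjusted p = 0.86), and adjusted p ran from 0.29 to 0.99 over the alternatives.

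The eIF5A genes are HYP2 (YEL034W; chromosome V, plus strand, transcript 85195 to 86368) and ANB1 (YJR047C; chromosome X, minus strand, 524798 to 525504). HYP2 had 1932 to 2693 CPM with the reporter (median 2330), against 2213 and 2258 CPM without it, and these ranges overlapped (log2 0.08, SE 0.12, edgeR adjusted p = 0.76). ANB1 had 8.57 to 26.3 CPM with the reporter (median 11.3), against 27.6 and 20.0 CPM without it. That is 11 to 77 reads a library, so counting error is part of its spread.

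ANB1 was below both control libraries in 10 of the 11 reporter libraries; WT replicate 1, at 26.3 CPM, was the exception. Its log2 fold change was the largest of the 10 in size, −0.94 (SE 0.29; 95% interval −1.56 to −0.32), which is 0.523 of the control level, and did not pass the adjusted threshold (edgeR adjusted p = 0.13). Without WT replicate 1 it was −1.09 (edgeR adjusted p = 0.029, where 2.47% of all genes passed), and without modNNN replicate 1 it was −1.03 (edgeR adjusted p = 0.044, where 5.72% passed). With 1 library left out, the log2 fold change of ANB1 ran from −1.09 to −0.65. Over all alternatives its adjusted p ran from 0.0039 to 0.66. The 0.0039 came from the edgeR fit of all 16 libraries, where 5.53% of all genes passed. That fit includes the 3 libraries of 477, 267 and 69 reads that were otherwise left out.

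ANB1 made up 0.336 to 1.28% of the reads of the eIF5A pair (median 0.494%). The log2 ratio of HYP2 to ANB1 averaged 7.51 ± 0.58 with the reporter (SD, n = 11) and 6.57 ± 0.35 without it (SD, n = 2), with p = 0.064 and adjusted p = 0.26 in the two-sided exact permutation test. ANB1 is held down in air by the repressor Rox1. In a list of 7 tested genes, ROX1 itself and 6 genes known to be used when oxygen is short, 0 passed the adjusted threshold in the reporter contrast and 3 had an unadjusted p under 0.05 (18.2% of all genes). The list's median log2 fold change was −0.32, and −0.35 without ROX1, against 0.02 over all genes. Over the genes with transcripts under 1 kb, such as ANB1 at 707 nt, the median was −0.13. The part of transcript length in the list's values was not tested. The mating type markers had a median of −0.33 in the same contrast. COX5B, the hypoxic form of a cytochrome c oxidase subunit and the highest of them per kb, had −0.55 (SE 0.14, edgeR adjusted p = 0.078). The 4 aerobic counterparts had a median of −0.22, with 0 passing either threshold.

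**Figure D4:**
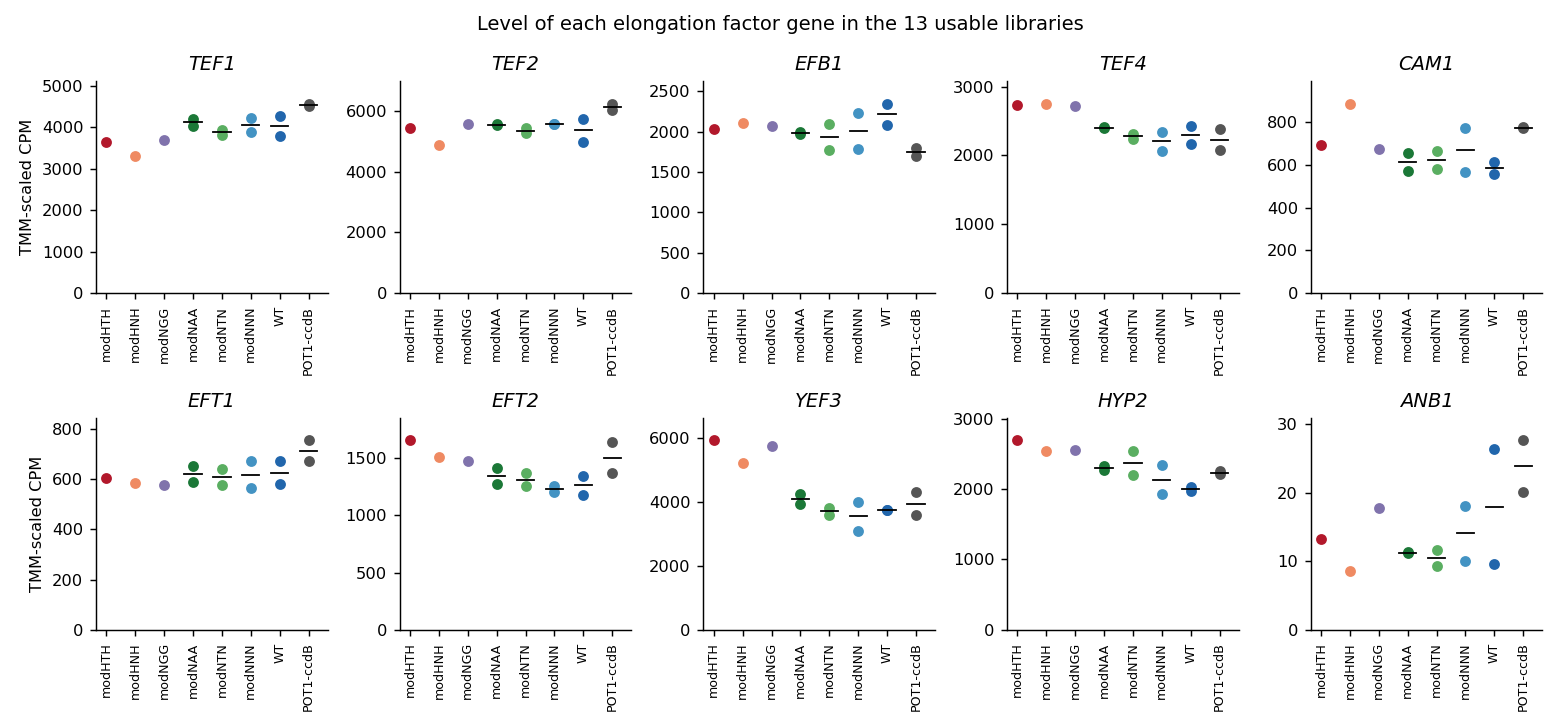
Level in CPM of each elongation factor gene in each usable library, by group, with 1 panel a gene and its own axis. YEF3 stands at 5915, 5195 and 5739 CPM in the lone libraries of modHTH, modHNH and modNGG and at no more than 4291 CPM elsewhere.

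The second question was whether the terminator on the plasmid made a difference to these chromosomal genes. Between modNNN and WT, 0 of 10 members passed (0.0190% of all genes did), and 0 of 10 had an unadjusted p under 0.05 (5.41% of all genes). The 9 members other than ANB1 had log2 fold changes of −0.14 (EFB1) to 0.19 (CAM1), and the 95% intervals of these 9 reached no farther than −0.48 and 0.55. ANB1 had −0.35.

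With 1 copy of T, in modNTN against modNNN, 0 of 10 members and 0% of all genes passed, and unadjusted p was under 0.05 in 0 of 10 and 1.92%. Here the 9 members other than ANB1 had log2 fold changes of −0.10 (CAM1) to 0.15 (HYP2), with intervals between −0.46 and 0.48. ANB1 had −0.42 (95% interval −1.39 to 0.56). With 2 copies of A, in modNAA against modNNN, the counts were again 0 of 10 against 0%, and 0 of 10 against 6.21% unadjusted. The range over the 9 members other than ANB1 was −0.13 (CAM1) to 0.21 (YEF3), with intervals between −0.49 and 0.55. ANB1 had −0.31 (95% interval −1.26 to 0.63). DESeq2 called 0 members in these 3 comparisons, against 0.0380% of all genes for modNNN over WT and 0% in the others.

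The 3 groups with a lone library gave the larger values, each resting on that library. In modNGG against modNNN 0 of 10 members passed (0% of all genes) and 1 of 10, YEF3, had an unadjusted p under 0.05 (14.4% of all genes). In modHNH against modNNN it was 0 of 10 (0%) and again 1, YEF3 (15.8% of all genes). In modHTH against modNNN 0 of 10 passed (0.0569% of all genes) and 2, YEF3 and EFT2, had an unadjusted p under 0.05 (19.5%). The shares of members are near those backgrounds. The members' median log2 fold changes were 0.15 for modNGG, 0.16 for modHNH and 0.04 for modHTH, each beside −0.01 or −0.004 over all genes. Over the alternatives they ran from 0.05 to 0.17 for modNGG, from 0.01 to 0.21 for modHNH and from −0.02 to 0.25 for modHTH.

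YEF3 had 5915 CPM in modHTH, 5195 in modHNH and 5739 in modNGG, against 3074 and 4003 CPM in modNNN. The log2 fold change was 0.74 in modHTH (SE 0.20; edgeR adjusted p = 0.11), which is 1.67-fold with a 95% interval of 1.26 to 2.22. It was 0.70 in modNGG (SE 0.20; edgeR adjusted p = 0.21) and 0.55 in modHNH (SE 0.20; edgeR adjusted p = 0.22). These 3 values share the modNNN libraries. Without modNNN replicate 2, which sets 1 library against 1, they were 0.94, 0.90 and 0.76 with edgeR adjusted p of 0.0080, 0.018 and 0.028. In that setting 669, 357 and 528 of the 5268 genes passed. The modNNN library kept in that setting, at 3074 CPM, had the lowest YEF3 level of the 13 libraries. Over all alternatives the log2 fold changes went down to 0.40, 0.45 and 0.28, and the adjusted p ran up to 0.75, 0.77 and 0.85.

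Against the 2 modNTN libraries, at 3816 and 3587 CPM, modHTH had a log2 fold change of 0.68 for YEF3 (SE 0.20; edgeR adjusted p = 0.28). In this comparison 0 of 10 members passed (0% of all genes), and YEF3 alone had an unadjusted p under 0.05 (12.5% of all genes). DESeq2, whose own filter left adjusted p-values for fewer genes, called YEF3 in modHTH against modNNN (adjusted p = 0.039, with 2.55% of 2000 genes called) and against modNTN (adjusted p = 0.049, with 2.11% of 570 genes called). Over the alternatives the second ran from 0.049 to 0.85. Between modHTH and modHNH, both from lone libraries, 0 of 10 members passed either threshold (0% and 1.82% of all genes).

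In the test of any difference among the groups 0 of 10 members passed (0.0190% of all genes), and YEF3 alone had an unadjusted p under 0.05 (edgeR adjusted p = 0.10), as did 19.2% of all genes. In DESeq2 it passed, with 8.02% of 2919 genes called.

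The lone libraries also stood apart over many genes in a way that followed transcript length. In modHTH against modNNN the median log2 fold change was −0.22 over the 727 genes with transcripts under 1 kb, −0.10 over 2552 genes of 1 to 2 kb, 0.11 over 1028 genes of 2 to 3 kb and 0.27 over 280 genes of 3 kb and longer. For modHNH the shortest and the longest class had −0.24 and 0.24, and for modNGG −0.14 and 0.22. The reporter contrast ran the same way, from −0.13 to 0.15. With a smooth trend on length removed, the YEF3 values were 0.48 for modHTH (edgeR adjusted p = 0.23), 0.53 for modNGG (0.29) and 0.32 for modHNH (0.46). The part of RNA integrity or of other properties of these 3 libraries in the YEF3 values was not tested.

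**Figure D5:**
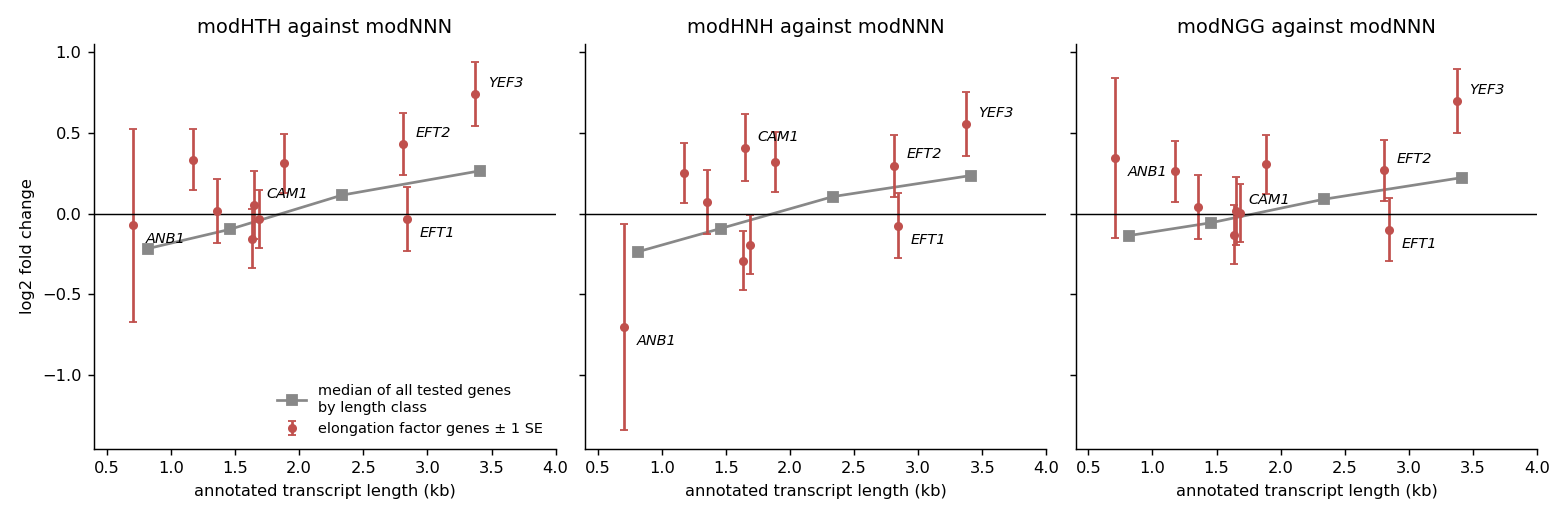
Log2 fold change against modNNN in the lone libraries of modHTH, modHNH and modNGG, by transcript length, with the line joining the medians of 4 length classes over all genes tested and points for the 10 elongation factor genes. In modHTH the class medians run from −0.22 under 1 kb to 0.27 at 3 kb and longer, and YEF3 (3371 nt) is at 0.74.

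Other members also stood apart in the lone libraries. TEF4, with a transcript of 1884 nt, had 2738, 2752 and 2726 CPM in modHTH, modHNH and modNGG, above the 2068 to 2427 CPM of the other 10 libraries. HYP2, at 1174 nt, had 2693, 2543 and 2558 CPM in them, above 1932 to 2537 CPM in the others, though on host read totals these ranges overlapped. With YEF3 that made 3 of 10 members higher in all 3 lone libraries (10.2% of all genes). TEF1, at 1633 nt, was the 1 member lower in all 3 (6.00% of all genes), with 3317 to 3707 CPM against 3799 to 4573 CPM.

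The eEF2 genes, with transcripts of 2841 nt (EFT1) and 2808 nt (EFT2), had these values. In modHTH against modNNN EFT2 had 1655 CPM against 1202 and 1254 CPM, a log2 fold change of 0.43 (SE 0.19; unadjusted p = 0.037, edgeR adjusted p = 0.22). EFT1 had 605 CPM against 671 and 566 CPM, a log2 fold change of −0.03 (SE 0.20). The difference between EFT1 and EFT2 in these libraries was not tested. CAM1 was highest in modHNH, at 888 CPM, against 567 and 772 CPM in modNNN (log2 0.41, SE 0.21, edgeR adjusted p = 0.34).

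Genes that work with the elongation factors gave no call in any of the 10 comparisons. Of 18 genes that modify or chaperone them, such as those of hypusine on eIF5A and diphthamide on eEF2, 18 were tested. In the reporter contrast 0 passed (0.380% of all genes) and 1 had an unadjusted p under 0.05 (18.2% of all genes), with a median log2 fold change of 0.04. DPH5, a methyltransferase of diphthamide synthesis, was the highest of them at 348 CPM per kb. The 4 ATPase genes related to YEF3 had a median of 0.09 with 0 at either threshold, and ARB1, which acts in ribosome assembly, led them at 262 CPM per kb. HEF3, the close paralog of YEF3 that is little used in growing cells, had only 22 to 63 reads a library; it is named outside the rule for naming genes, after its values were seen.

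Among 25 initiation factor genes 0 passed in the reporter contrast (0.380% of all genes). An unadjusted p under 0.05 was found for 5, a share near the 18.2% of all genes, and the median was 0.05. FUN12, for eIF5B, was the highest at 643 CPM per kb. The 3 termination and recycling genes had a median of 0.11 and 0 at either threshold, led by SUP45, for the release factor eRF1, at 139 CPM per kb. The 4 mitochondrial elongation factor genes had a median of 0.17, with 0 passing and 2 under an unadjusted p of 0.05 (18.2% of all genes). TUF1, the mitochondrial counterpart of eEF1A, led them at 75.0 CPM per kb, far under the 2449 CPM per kb of TEF1.

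The genes whose levels most closely followed the mean of the members over the 13 libraries were picked by Pearson's r with the members' mean centred log2 CPM. They are given as a description. Members were not scaled, so ANB1 and YEF3, with the widest spread (SD 0.556 and 0.279), weigh most in this mean. The members did not all move together, as TEF1 was lower in all 3 lone libraries, where YEF3 and TEF4 were higher. PFK1, a subunit of phosphofructokinase, had r = 0.91 (Spearman's rho 0.90), the RNA helicase genes DED1 and DBP2 had 0.89 and 0.85, the transketolase gene TKL1 had 0.85, and GSR1 had 0.85. Without the 2 farthest libraries the values lay between 0.72 (GSR1) and 0.90 (PFK1). ANB1 was followed by the ribosomal protein genes RPS18B and RPL16A, both at r = 0.91, and by STM1, for a ribosome-bound protein, at r = 0.90 (without the 2 farthest libraries 0.81, 0.85 and 0.83). All points share libraries and depth, and 5268 genes were searched.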

How the data were processed

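The values analysed are the deposited raw counts of reads per transcript in 16 libraries, which the authors had not normalized. HISAT2, featureCounts, SAMtools, cutadapt, FastQC, MultiQC and bedtools, and the sacCer3 (R64) build, are named per the submitters' processing notes. The sources used here give neither versions nor the strand setting, nor how reads matching several genes and duplicates were treated. Transcript starts and ends came from other columns of the deposited annotation, whose header names rtracklayer 1.42.1 and no build; 4672 of 4672 of its transcripts matched to RefSeq R64 held the whole gene span. Symbols came from RefSeq.

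The 10 members and the gene lists were chosen with earlier results of these data known. Libraries under 1000 reads were left out. The 13 usable libraries entered edgeR 4.0.16 (TMM, filterByExpr, quasi-likelihood test, group as the only term) in R 4.3.3, with adjustment over 5268 host genes at 0.05; DESeq2 1.42.0 was an alternative. Paralog ratios were tested by two-sided exact permutation with Python 3.11.15, numpy 2.4.6 and scipy 1.17.1, with adjustment over 8 tests; 95% intervals of fold changes use the fit's standard error. Correlations used log2 of CPM plus 0.5. Lists comprised factor modification and chaperones, eEF3-like genes, initiation, termination, mitochondrial elongation, hypoxic and aerobic genes, and strain and mating type markers. The genes named were the members, list members that passed (none did), the highest of each list per kb, the 5 genes most like the members' mean, the 3 most like ANB1, and strain markers. Alternatives covered normalization, tool, filter, libraries, replicate block, transcript length, summed paralogs and each library left out. The 4 deposited position tables were not used, since they hold none of these genes. Promoter and protein sequences were not analysed here.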

Additional observations from a re-analysis of the deposited data

How the results depend on the processing

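DESeq2 gave ANB1 no adjusted p in 4 comparisons. In the alternative settings where a member passed, 2.11 to 17.6% of all genes given an adjusted p passed as well. With all 16 libraries that share was 5.53% in the reporter contrast and 17.6% over all 8 groups. Over 219 combinations of the 10 comparisons and their alternative settings, the number of members passing stayed at 0 in 208 and was 1 in the other 11. For reporter against POT1-ccdB it was 1 (ANB1) with all 16 libraries, and 0 to 1 when 1 library was left out (1 without WT replicate 1 or modNNN replicate 1). For modNGG, modHNH and modHTH against modNNN it was 0 to 1 when 1 library was left out (1, YEF3, without modNNN replicate 2). It was 1 (YEF3) in DESeq2 for modHTH against modNNN, for modHTH against modNTN and over all 8 groups. Over all 8 groups it was also 1 (ANB1) with all 16 libraries and 0 to 1 when 1 library was left out (1, YEF3, without modNNN replicate 2).

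With only the 5 groups of 2 libraries, the sign turned in the reporter contrast for YEF3 (−0.084), HYP2 (−0.040) and the EFT1/EFT2 log2 ratio (0.015). With 1 library left out, the HYP2/ANB1 log2 ratio of modified terminators against WT differed by −0.065 (without WT replicate 1) to 1.36 (without WT replicate 2). The cause was not tested. Of the other alternative log2 fold changes counted, 336 kept direction and side of the threshold, and 8 passed it (ANB1 and YEF3, above). The count covered the 10 members in the reporter contrast, and YEF3, EFT2 and CAM1 in some comparisons of the lone libraries. Fold changes elsewhere were not counted, and signs turned there too. In modNAA against modNNN, 6 members were above 0 and 4 below, but with library totals 8 were above and 2 below. Over all genes, the 20 calls of the reporter contrast ranged from 0 (5 groups of 2 libraries) to 301 (without modNNN replicate 1), with 57 in DESeq2 and, with library totals, 19 lower and 5 higher. The 3 calls of modHTH against modNNN ranged from 0 (RLE size factors) to 669 (without modNNN replicate 2). With either of the 2 POT1-ccdB libraries left out, the reporter contrast called fewer than the 20 genes of the main fit. The members' median in the reporter contrast, −0.15, ran from −0.21 to −0.09 when 1 library was left out and was 0.05 with paralogs summed. In modHTH against modNNN their median of 0.04 was −0.02 with library totals and with all 16 libraries, and 0.25 with paralogs summed. The list of hypoxic genes without ROX1 was added after the values were seen. With library totals the median over all genes in modHTH against modNTN was −0.10.

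With a replicate block, 0 members passed in each of the 10 comparisons, while calls over all genes in the reporter contrast came to 68. Same-numbered libraries had deviations correlated between −0.30 and 0.32 over 10 pairs of groups, above 0.1 in 5 and above 0 in 7. As not every pair was above 0.1 and the labels do not say that a number marks a shared batch, the numbers were not taken as pairs; a shared batch was not tested otherwise. Depth limits ANB1 most, with 11 to 77 reads a library.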
